A study of Mus musculus with 12 samples.

Results

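The 9 genes described here mark the projection neurons of the direct pathway and were followed across 12 arrays of striatal RNA from mouse embryos. They were taken by name from a list (Drd1, Tac1, Pdyn, Isl1, Ebf1, Chrm4, Slc35d3, Eya1 and Sfxn1). Each was matched to 1 probe set, so that 9 of 9 listed genes were measured among 25428 probe sets in all. The study compared striata at embryonic day 18.5 between 6 wild-type (WT) animals and 6 animals labelled Nestin-Cre (Foxp1-/-), called cKO here, with both genotypes on C57BL/6J. Nestin drives Cre in neural progenitors, so that its activity is not limited to the striatum or to 1 type of neuron. The labels name no Cre or Foxp1 allele for the WT group and do not give the deleted exons. Each array is described as a separate biological replicate.

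None of the 9 genes differed between the genotypes after adjustment over all probe sets, but their differences were unequal. Tac1, which encodes the substance P precursor, had the largest difference, at -0.55 ± 0.12 (SE) on the log2 scale in cKO, and Slc35d3 followed at -0.28 ± 0.06. Isl1 and Ebf1 lay at -0.20 and -0.22, and Drd1, the D1 dopamine receptor gene, at 0.04 ± 0.15. The difference for Drd1 was not shown to be apart from those for Isl1, Ebf1 and Slc35d3. With all arrays, the difference for Tac1 was apart from that for Drd1, Pdyn, Eya1 and Sfxn1 in exact permutation tests, but these calls were lost when certain single cKO arrays were left out. Pdyn read low, where array values are compressed, so its small difference does not by itself show an unequal response. Slc35d3, at -0.28, read slightly lower still. Penk, the enkephalin precursor gene of the indirect pathway, taken minus Tac1 was 0.93 log2 units higher in cKO, with no overlap between the genotypes, in a pair set up with the values of both genes known.

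Striatal projection neurons form 2 output routes. Neurons of the direct pathway carry the D1 dopamine receptor, project to the substantia nigra and the internal pallidum, and release GABA with substance P and dynorphin. Neurons of the indirect pathway carry the D2 receptor, project to the external pallidum, and use enkephalin. Isl1, a LIM homeodomain factor, and Ebf1, a helix-loop-helix factor, act in the differentiation of direct-pathway neurons before birth, and Foxp1 is a forkhead factor found in projection neurons of both routes. Several of the markers are not exclusive: Isl1 is also made by cholinergic interneurons, Ebf1 by mural cells of blood vessels, and Sfxn1, a mitochondrial serine carrier, by many cell types.

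The RefSeq promoter windows of the 9 genes were read on GRCm38.p6 for 4 short motifs in the 250 bases before each annotated start. A window was found for 8 genes, in 11 windows, and Eya1 had none in the table. The core of the cAMP response element, TGACG, is of interest because the D1 receptor acts through cAMP. It was present on either strand in the windows of Tac1, Slc35d3 and Isl1, that is in 3 of 11 windows, and in 17.8% of all 32851 windows. The palindrome CCCNNGGG bound by EBF factors occurred in 1 member window, that of Pdyn, and in 11.8% of all. The forkhead core TGTTTAC was found in 0 of 11 windows and in 3.17% of all, and TAATGG, of the type bound by ISL1, in 0 of 11 and in 6.57% of all. No member window held more than 1 of the motifs. A match is a description of the letters, and no match says only that these letters are absent from the window. The 4 windows with a match are shown 5′ to 3′ on the strand of the gene, for Tac1 at chr6:7554811-7555060 (plus strand), Slc35d3 at chr10:19851460-19851709 (minus), Isl1 at chr13:116309689-116309938 (minus) and Pdyn at chr2:129699939-129700188 (minus). Capitals mark TGACG or its reverse complement CGTCA in the first 3, and CCCNNGGG in Pdyn.
Tac1: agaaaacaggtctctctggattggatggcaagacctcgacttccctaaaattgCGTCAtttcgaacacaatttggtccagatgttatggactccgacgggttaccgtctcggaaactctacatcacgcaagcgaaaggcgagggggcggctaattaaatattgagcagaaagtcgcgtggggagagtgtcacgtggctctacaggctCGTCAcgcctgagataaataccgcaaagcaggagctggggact
Slc35d3: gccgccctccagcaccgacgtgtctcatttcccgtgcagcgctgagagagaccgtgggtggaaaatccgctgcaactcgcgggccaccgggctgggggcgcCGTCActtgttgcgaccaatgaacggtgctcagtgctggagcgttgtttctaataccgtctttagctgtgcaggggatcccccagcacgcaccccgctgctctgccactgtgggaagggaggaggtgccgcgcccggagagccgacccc
Isl1: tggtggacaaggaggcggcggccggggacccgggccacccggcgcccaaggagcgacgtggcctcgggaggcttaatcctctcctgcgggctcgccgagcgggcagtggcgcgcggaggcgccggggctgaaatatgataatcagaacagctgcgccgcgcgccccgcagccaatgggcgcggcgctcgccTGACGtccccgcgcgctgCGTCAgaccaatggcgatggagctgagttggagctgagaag
Pdyn: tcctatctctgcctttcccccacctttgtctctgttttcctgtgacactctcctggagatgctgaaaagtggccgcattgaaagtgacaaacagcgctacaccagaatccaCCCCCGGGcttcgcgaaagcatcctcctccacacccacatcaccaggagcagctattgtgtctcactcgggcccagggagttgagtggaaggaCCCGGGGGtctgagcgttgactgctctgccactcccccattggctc
In Tac1 the matches began 197 and 43 bases before the start, in Isl1 59 and 41 bases, and in Slc35d3 149 bases. Those of Pdyn began 139 and 46 bases before it.

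All values were on the log2 scale, with an array median of 5.71 and a range of 5.21 to 13.99. Correlations between arrays ran from 0.992 to 0.998. The targeted gene, Foxp1, lay between 10.89 and 11.39 in WT, with a median of 11.15, and between 10.14 and 10.36 in cKO, with a median of 10.22. It fell by 0.91 ± 0.07 (SE) on the log2 scale (limma adjusted p = 0.000170), and the groups did not overlap. As a check of the tissue, the projection neuron gene Bcl11b and the GABA synthesis gene Gad2 had WT means of 10.82 and 11.40, far above the array median. Among the 9 genes Ebf1, Isl1 and Sfxn1 stood at or above percentile 94.2 of all probe sets by mean level, whereas Chrm4 stood at percentile 43.3, below the median. Pdyn and Slc35d3 lay near percentile 61.5 and 59.7. A probe set reads its own gene only, so these percentiles rank array readings and are not taken as relative amounts of RNA.

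The peptide precursors came first. Tac1 ranged from 6.99 to 7.74 in WT, with a median of 7.30, and from 6.57 to 7.01 in cKO, with a median of 6.71. Of the cKO arrays, 5 were lower than the whole WT group. The remaining one, cKO replicate 4 at 7.01, stood just above the lowest WT array, replicate 1 at 6.99, so that the groups overlapped by this pair. The means were 7.30 ± 0.28 (SD, n = 6) and 6.75 ± 0.14 (SD, n = 6). The difference was -0.55 ± 0.12 (SE), or 1.47-fold, with a 95% interval of -0.81 to -0.29 (limma adjusted p = 0.0653). Of 23 alternatives 4 took Tac1 past 0.05, among them leaving out WT replicate 1 (adjusted p = 0.0368), and the highest adjusted p was 0.207, when the mean of cortical genes was a covariate.

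Pdyn, the dynorphin precursor gene, varied little. It ran from 6.04 to 6.13 in WT, with a median of 6.09, and from 5.88 to 6.09 in cKO, with a median of 6.03. Of the cKO arrays, 4 were below the lowest WT array and the others lay within the WT range. The difference of -0.08 ± 0.03 (SE) had an interval of -0.15 to -0.0046 (limma adjusted p = 0.420).

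Of the 2 receptors, Drd1 was among the most variable transcripts of the data set. Its residual SD stood at percentile 99.5 of all probe sets, and that of Tac1 at percentile 98.8. Drd1 ranged from 6.34 to 7.24 in WT, with a median of 6.85, and from 6.54 to 6.96 in cKO, with a median of 6.92. All cKO arrays thus fell inside the WT range. WT replicates 1 and 6 were low, at 6.34 and 6.47, and WT replicates 3 and 4 high, at 7.10 and 7.24. The difference of 0.04 ± 0.15 (SE) had an interval of -0.28 to 0.36 (limma adjusted p = 0.956), and its sign turned without WT replicate 1 (-0.06) or WT replicate 6 (-0.03). With this spread, a difference of the size seen in Slc35d3 would lie at the edge of the interval.

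Chrm4, which encodes the M4 muscarinic receptor that opposes D1 signalling, was dim. It read 5.56 to 5.73 in WT, with a median of 5.61, and 5.53 to 5.66 in cKO, with a median of 5.59. The groups overlapped broadly, and the difference was -0.03 ± 0.03 (SE; limma adjusted p = 0.736).

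**Figure D1:**
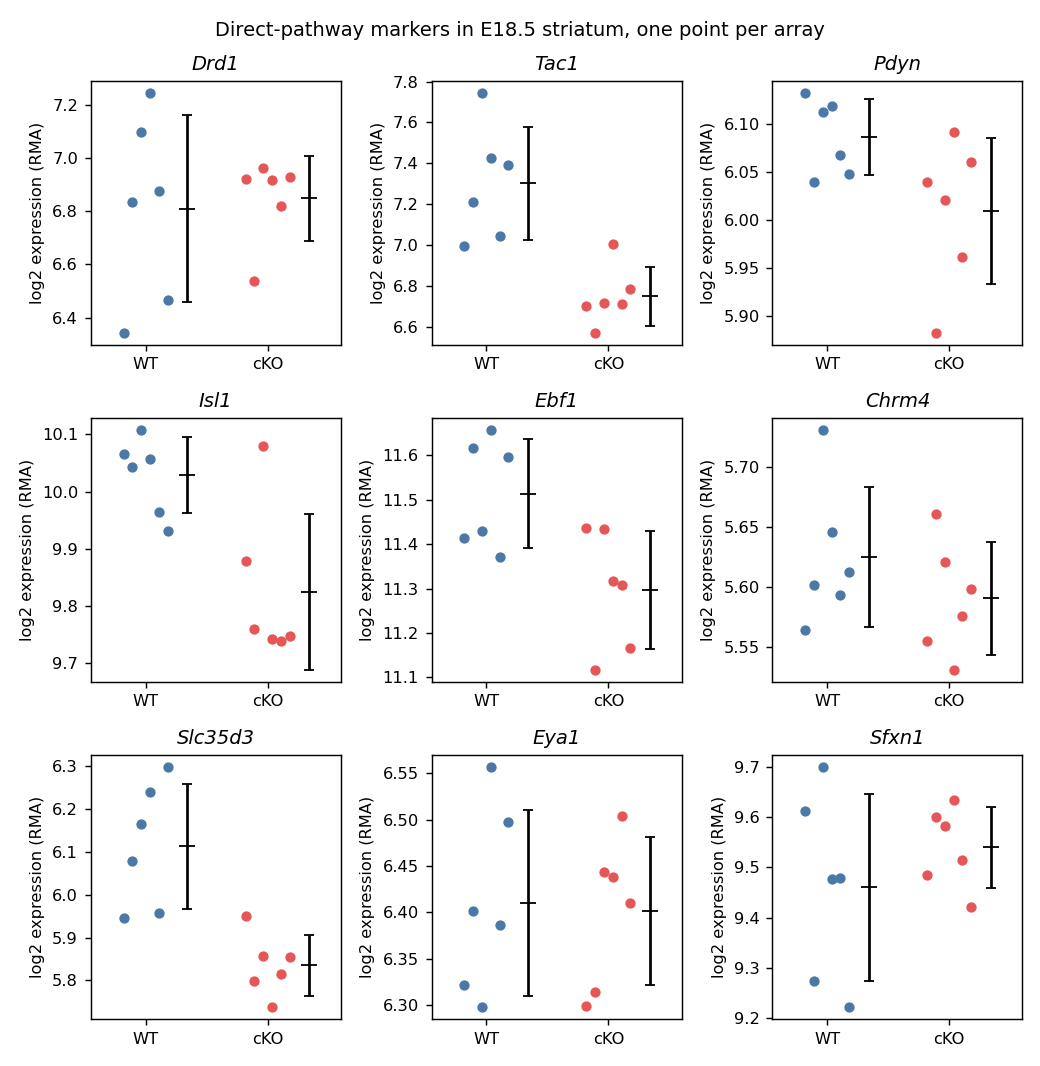
Each panel plots the RMA log2 expression of 1 direct-pathway marker in the 6 WT (blue) and 6 cKO (red) arrays, with the mean and SD beside the points; the vertical axes differ and do not start at 0. Tac1 and Slc35d3 are separated except for 1 pair of arrays each, Isl1 has 1 cKO array at 10.08 among the WT arrays, and Drd1 spans 6.34 to 7.24 in WT.

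Among the transcription factors, Isl1 was tight in WT, between 9.93 and 10.11 with a median of 10.05. In cKO it ran from 9.74 to 10.08, with a median of 9.75. In cKO, 5 arrays were lower than the whole WT group, and replicate 3, at 10.08, lay among the WT arrays. The means were 10.03 ± 0.07 (SD, n = 6) and 9.82 ± 0.14 (SD, n = 6), a difference of -0.20 ± 0.06 (SE; limma adjusted p = 0.176). Without cKO replicate 3 the value was -0.25 and Isl1 passed (adjusted p = 0.0148). Over all 23 alternatives its adjusted p ran from 0.0148 to 0.359.

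Genes of cortical glutamatergic neurons, a neighbouring tissue, read higher on cKO arrays on which Isl1 read lower. The mean of 7 such genes lay between 6.05 and 6.44 in WT, and the cKO arrays fell into 2 clusters. In cKO replicates 1 and 3 the mean was 6.10 and 6.01, and Isl1 was 9.88 and 10.08. In cKO replicates 2, 4, 5 and 6 it was 6.57, 6.57, 6.58 and 6.76, and Isl1 was between 9.74 and 9.76. With the cortical mean as a covariate the difference for Isl1 was -0.12 (limma adjusted p = 0.271), and that for Ebf1 was -0.15 (adjusted p = 0.494). In the same fit the difference for Tac1 was -0.53 (adjusted p = 0.207), and that for Slc35d3 was -0.24 (adjusted p = 0.248). Of the 7 genes 0 passed over all probe sets; Neurod6, Neurod2 and Tbr1 were at 0.51, 0.41 and 0.34, and Slc17a7 and Emx1 lay at or below the array median. Because the cKO arrays fell into clusters, a correlation was also taken within WT alone. There Isl1 had r = -0.69 (n = 6, exact permutation p = 0.107) and rho = -0.83 (exact permutation p = 0.0583) with the cortical mean, and r was -0.34 without the 2 arrays farthest from the median. For Tac1 r was -0.62 (exact permutation p = 0.165), rho was -0.43 (exact permutation p = 0.419), and r turned to 0.71 without those arrays.

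**Figure D2:**
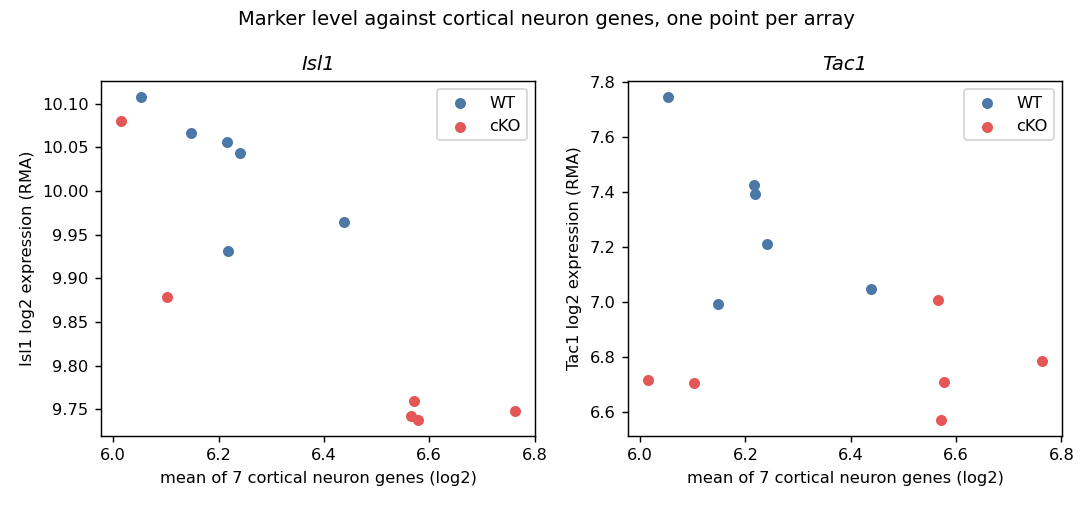
The horizontal axis is the mean log2 expression of 7 cortical glutamatergic neuron genes, and the vertical axis the log2 expression of Isl1 (left) or Tac1 (right), with 1 point for each WT (blue) or cKO (red) array. The 4 cKO arrays with a cortical mean of 6.57 to 6.76 are those with Isl1 between 9.74 and 9.76, whereas Tac1 lies between 6.57 and 7.01 in all 6 cKO arrays.

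Ebf1 stood at percentile 99.4 of all probe sets by mean level. It ranged from 11.37 to 11.66 in WT, with a median of 11.51, and from 11.12 to 11.44 in cKO, with a median of 11.31. In cKO, 4 arrays were below the lowest WT array, and replicates 1 and 3, at 11.44 and 11.43, reached into the WT range. Replicates 1 and 3 are also the cKO arrays with the lower cortical mean. The difference was -0.22 ± 0.07 (SE), with an interval of -0.37 to -0.07 (limma adjusted p = 0.243), and Ebf1 passed in 0 of 23 alternatives. Eya1, a cofactor of homeodomain proteins with phosphatase activity, was level. It read 6.30 to 6.56 in WT, with a median of 6.39, and 6.30 to 6.50 in cKO, with a median of 6.42. The interval of the difference, -0.12 to 0.10, was narrow (limma adjusted p = 0.972).

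The last 2 genes encode carriers. Slc35d3, a member of the nucleotide sugar transporter family that has been linked to trafficking of the D1 receptor, ran from 5.95 to 6.30 in WT, with a median of 6.12. In cKO it ran from 5.74 to 5.95, with a median of 5.83. In cKO, 5 arrays were below every WT array, and replicate 1, at 5.95, lay just above WT replicate 1. The difference was -0.28 ± 0.06 (SE), or 1.21-fold, with an interval of -0.41 to -0.14 (limma adjusted p = 0.0757). It passed without WT replicate 1 (adjusted p = 0.0388), with dim probe sets left out (0.0290) and with a trended, robust prior (0.0210). Without dim probe sets and with that prior Tac1 passed as well, at 0.0180 and 0.0204.

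Sfxn1 read 9.22 to 9.70 in WT, with a median of 9.48, and 9.42 to 9.63 in cKO, with a median of 9.55, all within the WT range. The difference was 0.08 ± 0.08 (SE; limma adjusted p = 0.769). In the RefSeq gene order Sfxn1 is the coding gene next to Drd1 on chromosome 13. Their arrays did not track each other closely, with r = 0.16 (permutation p = 0.687) and rho = 0.13 (permutation p = 0.734) over the 12 deviations from the group means. Without the 2 arrays farthest from the Drd1 median, r was 0.22, and it turned to -0.39 without WT replicates 3 and 6.

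In all, 0 of 9 genes passed an adjusted p of 0.05, against 0.728% of all probe sets. At an unadjusted p under 0.05, 5 of 9 had lower values in cKO (Tac1, Slc35d3, Isl1, Ebf1 and Pdyn), where 5.67% of all probe sets did, and 0 of 9 had higher ones, against 5.06%. The groups were fully apart in 0 of 9, against 0.822% of probe sets with every cKO array on the low side and 0.562% with every cKO array on the high side. Negative differences were found in 7 of 9, with a median of -0.08, and in 13027 of all 25428, with a median of -0.00077. In dissected tissue, fewer cells of a type and less RNA per cell cannot be told apart.

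**Figure D3:**
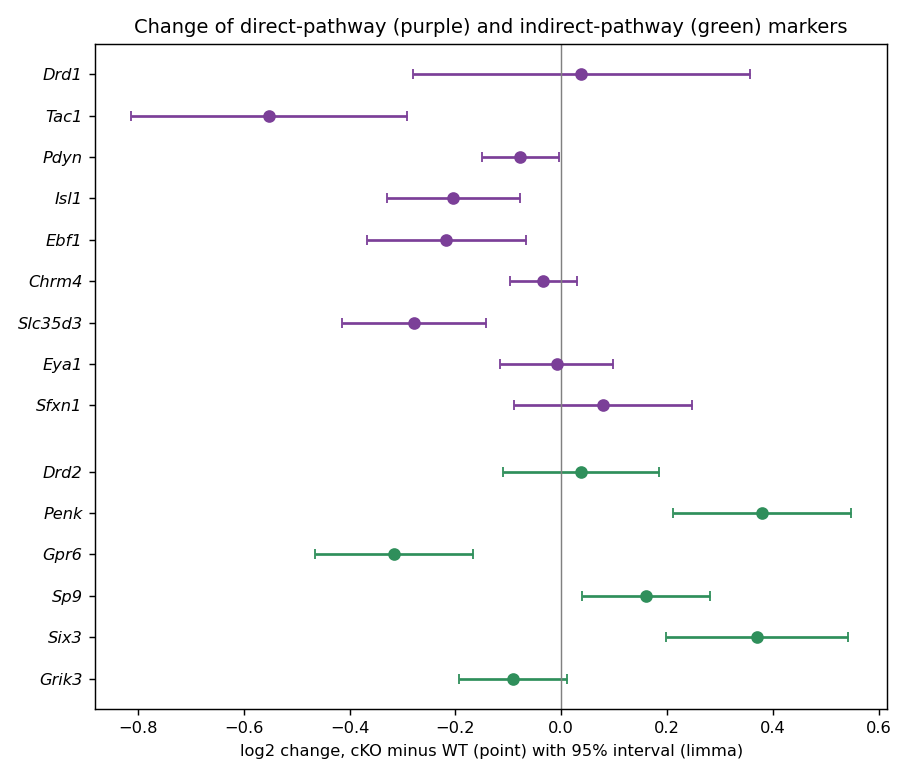
Points give the log2 difference, cKO minus WT, with limma's 95% interval, for the 9 direct-pathway markers (purple) and 6 indirect-pathway markers (green). The intervals of Tac1, Slc35d3, Isl1, Ebf1 and Pdyn lie below 0, that of Drd1 runs from -0.28 to 0.36, and Penk, Six3 and Sp9 lie above 0 while Gpr6 lies below it.

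Whether the 9 differences were themselves unequal was tested for each of the 36 pairs, by an exact permutation over all 924 assignments of the arrays. At a Benjamini-Hochberg adjusted p under 0.05, 9 pairs differed. Tac1 was apart from Drd1, with 0.59 between their differences (exact permutation p = 0.00216, the smallest possible, adjusted p = 0.0260). It was also apart from Sfxn1 (0.63) and Eya1 (0.54) at that adjusted p, and from Pdyn (0.48) at 0.0334. Slc35d3 was apart from Eya1 (0.27) at an adjusted p of 0.0334 by the same exact test. It was apart from Sfxn1 (0.36) at 0.0433, as was Isl1 (0.28). The other 2 of the 9 pairs set Tac1 and Slc35d3 against Chrm4, whose probe set lay below the array median, where a small difference does not show an unequal response. Low values are compressed, so this limit also bears on Pdyn, with a mean level at percentile 61.5 of all probe sets. It bears equally on Slc35d3, which read lower still, at percentile 59.7, and had a difference of -0.28. Tac1 and Slc35d3 were 0.27 apart (adjusted p = 0.0719), and Isl1 and Ebf1 0.01 apart (adjusted p = 0.827). By the same exact test Drd1 was not separated from Slc35d3 (0.32, adjusted p = 0.115), Isl1 (0.24, 0.214) or Ebf1 (0.26, 0.203). Nor was Tac1 separated from Isl1 (0.35, adjusted p = 0.0831) or Ebf1 (0.34, 0.0701). The 9 calls depended on single arrays, since the count was 0 without cKO replicate 2, 5 or 6, and also 0 without WT replicates 3 and 6. It was 4 without WT replicate 2, 4 or 6. Over the 16 alternatives run, the gap between Drd1 and Tac1 lay between 0.44 and 0.65.

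The genes were next set beside their counterparts of the indirect pathway, in 3 pairs chosen with the differences of the genes known, a choice that the p-values do not cover. Penk, singled out with its values known, ran from 10.14 to 10.69 in WT, with a median of 10.39, and from 10.61 to 10.86 in cKO, with a median of 10.81. Within each array Penk was taken minus Tac1, so that a constant offset of each probe set drops out of the comparison between groups. Compression of low values does not drop out, and it can make the difference of a gene that reads low too small. This difference lay between 2.94 and 3.35 in WT, with a median of 3.05, and between 3.85 and 4.22 in cKO, with a median of 4.04. All 6 cKO arrays were above every WT array. The means were 3.10 ± 0.16 (SD, n = 6) and 4.03 ± 0.14 (SD, n = 6), and the shift of 0.93 had an exact permutation p of 0.00216, the smallest possible (adjusted over 3 such pairs, 0.00325). It stayed between 0.87 and 0.98 in all 16 alternatives run on it. Penk minus Pdyn shifted by 0.46, from 4.31 ± 0.17 (SD, n = 6) to 4.77 ± 0.10 (SD, n = 6), again without overlap (exact permutation adjusted p = 0.00325). Most of this shift lay in Penk, since Penk alone was at 0.38 and Pdyn at -0.08. For the receptors there was no such shift: the WT mean of Drd2 minus Drd1 was 2.62 ± 0.33 (SD, n = 6) and its cKO mean 2.62 ± 0.17 (SD, n = 6), with an exact permutation p of 1.

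**Figure D4:**
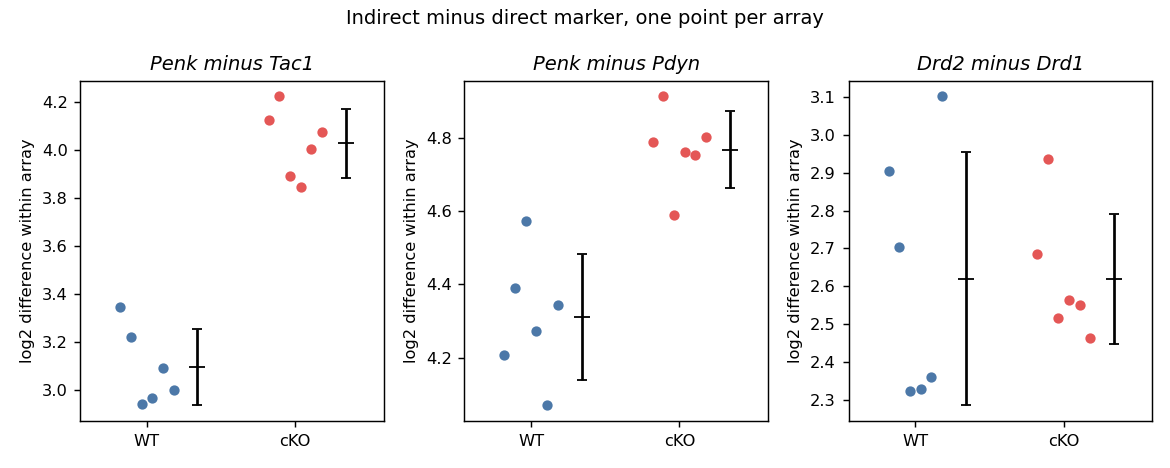
For each of the 6 WT (blue) and 6 cKO (red) arrays the log2 difference between an indirect-pathway gene and a direct-pathway gene is plotted, with mean and SD beside the points; the vertical axes do not start at 0. Penk minus Tac1 lies at 2.94 to 3.35 in WT and 3.85 to 4.22 in cKO, whereas Drd2 minus Drd1 overlaps between 2.32 and 3.10.

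Of the 6 indirect-pathway genes measured, 0 passed over all probe sets. At an unadjusted p under 0.05, 3 were higher in cKO (Penk, Six3 and Sp9) and 1 lower (Gpr6), against 5.06% and 5.67% of all probe sets, and the list median was 0.10. Penk was at 0.38 ± 0.08 (SE; limma adjusted p = 0.0501) and Six3, which encodes a homeodomain factor, at 0.37 ± 0.08 (adjusted p = 0.0601), with Sp9 at 0.16. Penk passed in 5 of 23 alternatives, with adjusted p from 0.00986 to 0.184, and Six3 in 3 of 23, from 0.0173 to 0.202. Gpr6, an orphan receptor gene, was at -0.32 ± 0.07 (adjusted p = 0.0651), and the groups were apart, at 5.71 to 5.85 in cKO and 5.88 to 6.32 in WT. The dopamine receptor genes Drd1 and Drd2 were both at 0.04, with limma intervals of -0.28 to 0.36 and -0.11 to 0.18. Changes within these intervals are not excluded, and the receptor gene Gpr6 was lower, at -0.32. The peptide genes Tac1, Pdyn and Penk were at -0.55, -0.08 and 0.38. Receptor and peptide genes were thus not split into steady and changed ones.

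Of 3 other genes reported as enriched in direct-pathway neurons, 1 rose. Zfp521, a zinc finger protein that binds EBF factors, rose by 0.58 ± 0.09 (limma adjusted p = 0.0153). It read 9.06 to 9.54 in WT, with a median of 9.13, and 9.50 to 9.92 in cKO, with a median of 9.86, and the groups met only in the highest WT and the lowest cKO array. The call was lost without WT replicates 3 and 6 (adjusted p = 0.0904). Dner, a Notch ligand gene, was at 0.18 and Gng2, a G protein subunit gene, at 0.04, neither past the threshold. The list thus had 1 of 3 genes higher, against 0.299% of all probe sets, and a median of 0.18.

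Relatives and partners of the 9 genes were measured on the same arrays. Among partners of Eya1, the corepressor genes Dach1 and Dach2 parted: Dach1 fell by 0.60 ± 0.09 (adjusted p = 0.00859) and Dach2 rose by 0.12 ± 0.02 (adjusted p = 0.0174). Dach1 lay at 8.50 to 8.97 in WT, with a median of 8.62, and at 7.99 to 8.24 in cKO, with a median of 8.12. Dach2 was near the array median, at 5.58 to 5.68 in WT and 5.71 to 5.81 in cKO, and its call was lost without WT replicates 3 and 6 (adjusted p = 0.0985). Neither pair of groups overlapped. In this list of 11 measured Eya and Dach genes and homeodomain partners, 1 was higher and 1 lower, against 0.299% and 0.429% of all probe sets, with a median of 0.02.

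For Isl1, the list of LIM homeodomain genes and their cofactors had 0 of 16 past the threshold, against 0.728% of all probe sets, and a median of -0.02. By unadjusted p under 0.05 there were 2 above and 5 below, against 5.06% and 5.67% of all probe sets. Ldb2, an adaptor that bridges LIM proteins, was at -0.28 ± 0.06 (adjusted p = 0.0588), and Ssbp3, which stabilises that adaptor, at 0.18 ± 0.04 (adjusted p = 0.0730) with no overlap between the groups. Of the 4 Ebf genes 0 passed, with Ebf2 at 0.05 and Ebf4 at -0.07 beside Ebf1. Of 8 sideroflexin and Slc35d genes 0 passed, and Sfxn2 and Slc35d1 were at -0.09 and -0.06.

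The receptor and peptide families gave 0 calls as well. Since 0.728% of all probe sets passed, a count of 0 in lists this short says little about them. Of 5 dopamine receptor genes 0 passed, and Drd4 and Drd5, at 0.03 and -0.03, lay near the array median. Of 5 muscarinic receptor genes 0 passed, with Chrm2 at -0.28 ± 0.10 (adjusted p = 0.307) and Chrm1 at -0.20 ± 0.10 (adjusted p = 0.514). Among 7 tachykinin and opioid precursor genes 0 passed, and besides Tac1, Pdyn and Penk the highest value was 0.05, for Tac2. Tacr1, which encodes the receptor of substance P, was at -0.13 ± 0.03 (adjusted p = 0.0779), and Oprk1, the receptor gene of dynorphin, at -0.05 ± 0.02 near the array median, so that 0 of 7 receptor genes passed. In the peptide processing list 0 of 9 passed, with a median of 0.0042. Scg5, a chaperone of the convertase PC2, was at -0.14 ± 0.05 (adjusted p = 0.297) and Pcsk1n, a convertase inhibitor gene, at -0.13. At an unadjusted limma p under 0.05, 2 precursor genes were above and 2 below, against 5.06% and 5.67% of all probe sets. In the other lists 0 were above. Below were 2 tachykinin and opioid receptor genes, 1 muscarinic receptor gene, 1 processing gene and 0 dopamine receptor genes.

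Downstream of the D1 receptor, 1 of 18 genes fell and 0 rose, against 0.429% and 0.299% of all probe sets. It was Pde10a, a phosphodiesterase that breaks down cAMP and cGMP in projection neurons, at -0.59 ± 0.09 (adjusted p = 0.00869). At an unadjusted p under 0.05, 8 of 18 were below and 0 above, where 5.67% and 5.06% of all probe sets were, and the list median was -0.06. Gnal, the G protein that couples the D1 receptor to adenylyl cyclase, was at -0.37 ± 0.08 (adjusted p = 0.0730), without overlap of the groups. Ppp1r1b, the phosphatase inhibitor DARPP-32, was at -0.48 ± 0.11 (adjusted p = 0.0718). Among 13 genes shared by projection neurons of both pathways 2 fell, Pde10a and the Ikaros factor gene Ikzf1 (-0.59 ± 0.07, adjusted p = 0.00353), and 0 rose, against 0.429% and 0.299% of all probe sets, with a median of -0.15. By unadjusted p under 0.05, 6 were below and 2 above. The D1 signalling list and this one share 5 genes.

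Covariation among the 9 genes was measured on deviations from the group means, since a correlation over all arrays would mix in the difference between the genotypes. Of 36 pairs 28 had a positive r, with a median of 0.28 and a range of -0.43 to 0.58. In 0 of 36 pairs did r pass an adjusted p of 0.05, and 0 had an unadjusted permutation p under 0.05, with 1 such pair by rho. The highest value was that of Ebf1 and Slc35d3, with r = 0.58 (permutation p = 0.0575, adjusted p = 0.666) and rho = 0.64 (permutation p = 0.0343, adjusted p = 0.497). Without the 2 arrays farthest from the Ebf1 median r was 0.49. Drd1 and Tac1 had r = 0.57 (permutation p = 0.127, adjusted p = 0.666) and rho = 0.62 (permutation p = 0.0820, adjusted p = 0.497), and r was 0.60 without the 2 arrays farthest from the Drd1 median. The value was alike in both groups, at 0.57 in WT and 0.61 in cKO. Set against all probe sets, Tac1 ranked above 96.6% of them in its r with Drd1, and Slc35d3 above 96.8% in its r with Ebf1. These were the highest ranks among the 36 pairs, and the lowest was 10.6%.

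Within the groups, each with 6 arrays, the sign of r was positive in both for 17 of 36 pairs, negative in both for 3 and opposite for 16. Tac1 and Chrm4 were the most divided pair. Their r was 0.95 in WT (exact permutation p = 0.00139, adjusted p = 0.050 over 36 pairs) and -0.78 in cKO (exact permutation p = 0.0694, adjusted p = 0.738). WT replicate 3 was highest for both genes, and without it the r over both groups turned from 0.43 to -0.09. That value pools the WT arrays with the cKO arrays, and the r within WT was not computed without replicate 3. Chrm4 was dim, at percentile 43.3 of all probe sets. Whether the 2 groups' values differ was not tested. In cKO, Pdyn followed Drd1 with r = 0.90 (exact permutation p = 0.0306, adjusted p = 0.738) and Tac1 with r = 0.84 (exact permutation p = 0.0431, adjusted p = 0.738), whereas in WT these values were 0.16 and 0.13. The cKO replicate 2 was lowest for Drd1, Tac1 and Pdyn alike, at 6.54, 6.57 and 5.88.

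The lowest r values involved Sfxn1. Its r was -0.43 with Eya1, -0.42 with Slc35d3 and -0.38 with Ebf1 (rho -0.43, -0.45 and -0.34), while Eya1, Slc35d3 and Ebf1 were positive among themselves, at 0.33 to 0.58. In WT alone the r of Sfxn1 was -0.65 with Ebf1 and -0.62 with Eya1, and in cKO it was 0.08 and 0.07. With an n of 12 none of these passed (permutation p from 0.0575 to 0.360). The r of Ebf1 and Eya1 was 0.49 (permutation p = 0.120, adjusted p = 0.666) and rho 0.40 (permutation p = 0.217, adjusted p = 0.497).

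**Figure D5:**
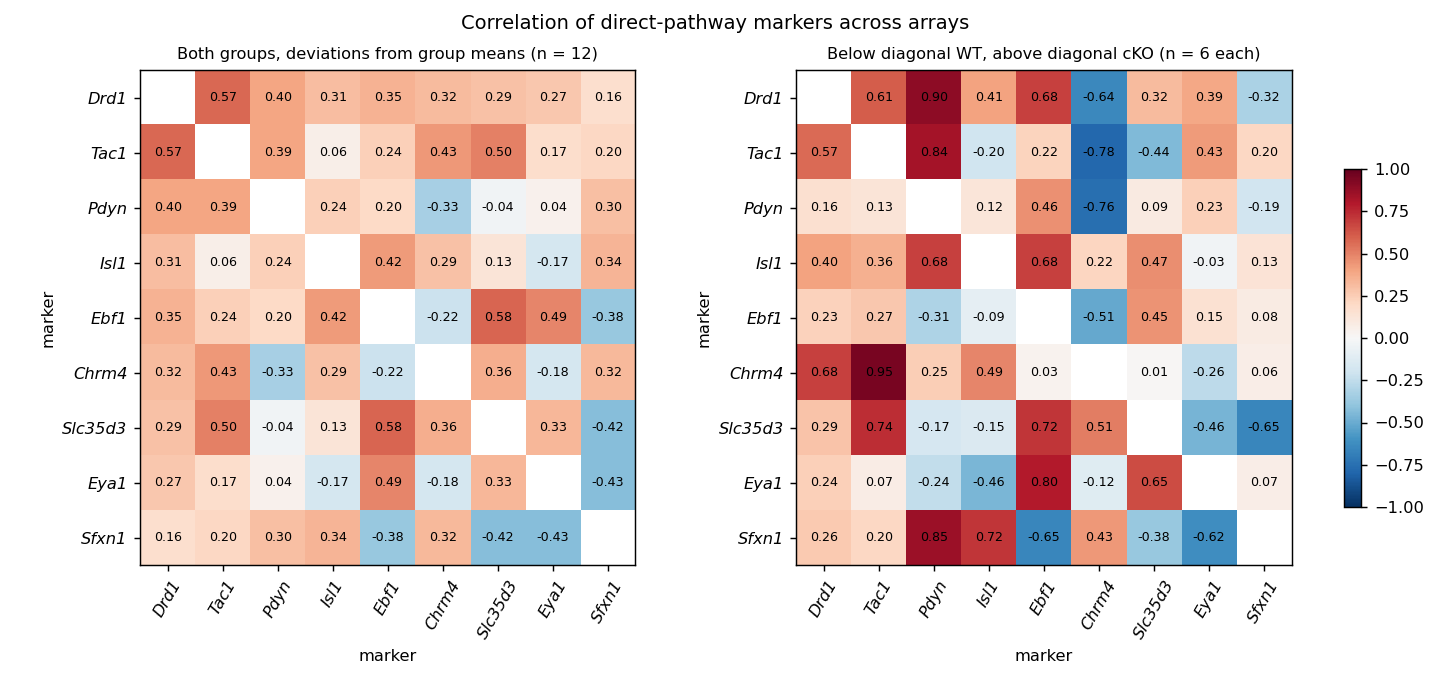
Both panels give Pearson's r between pairs of the 9 markers, in colour from -1 (blue) to 1 (red) and in figures. The left panel uses the 12 deviations from the group means, with values of -0.43 to 0.58, and the right panel the 6 WT arrays below the diagonal and the 6 cKO arrays above it, where Tac1 and Chrm4 stand at 0.95 and -0.78.

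The genes most like each marker were sought among 12286 named probe sets above the array median, by r of the deviations over the 12 arrays, as a description. Other members of the list were not among the 3 most alike of any marker. Drd1 was most like Ssbp2 (0.92), a cofactor gene of the LIM list, then Lypd1 (0.92) and Sco2 (0.90). Tac1 was most like the growth factor gene Tgfa (0.96), Rap1gap (0.94) and Gnal (0.93), and these had differences of -0.47, -0.27 and -0.37, none past the threshold. Isl1 was most like Nkx2-1 (0.93), a factor of the medial ganglionic eminence and pallidum, then Isy1 (0.91) and Psma7 (0.90). For Ebf1 the list was Atxn1 (0.90), Rph3a (0.90) and Robo1 (0.87), and of these Rph3a fell by 0.38 (limma adjusted p = 0.00721). Slc35d3 was most like Sema3f (0.90), Bcl11b (0.88) and Fdxacb1 (0.87). Pdyn was most like Bbs4 (0.89), Akap1 (0.88) and Ech1 (0.86), and Chrm4 like Srp68 (0.94), Xpnpep1 (0.93) and Rps19bp1 (0.92). The genes most like Eya1 were Yif1a (0.89), Ccdc90b (0.88) and E130308A19Rik (0.88), and for Sfxn1 they were Oxct1 (0.95), Nptxr (0.94) and Selenoi (0.94). With 12 arrays and 12286 candidates, values of this size were found for every marker, the dim ones included.

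Markers of other cells were read on the same arrays, where 0.728% of all probe sets passed the adjusted threshold. For cholinergic interneurons, which carry Isl1 and Chrm4, 0 of 7 genes passed, Chat and 2 others were at or below the array median, and the list mean lay at 5.86 to 6.11 in WT arrays and 5.92 to 6.03 in cKO arrays. This list mean and Isl1 were both highest in replicate 3 of each group, and both were lowest in replicate 6 of WT. In cKO the list mean was lowest in replicate 6, at 5.92, and Isl1 in replicate 5, at 9.74. Whether Isl1 and this list mean correlate was not tested. For mural cells, which carry Ebf1, 0 of 7 passed (by unadjusted p under 0.05, 2 above and 2 below, against 5.06% and 5.67% of all probe sets), with list means of 6.71 to 6.76 and 6.69 to 6.79. Pdgfrb was at 0.13 and Cspg4 at -0.07. Among pallidal and septal neighbours 0 of 6 passed, with a median of 0.01, and Lhx6 and Nkx2-1 were at -0.02 and 0.01. Genes of progenitors and immature neurons were at positive values in 13 of 13, with a median of 0.15, 7 of them at an unadjusted p under 0.05 against 5.06% of all probe sets, and 0 past the adjusted threshold. Sox2 was at 0.37 ± 0.09 (adjusted p = 0.111) and Dcx at 0.08 ± 0.02 (adjusted p = 0.128). Their list mean was 9.06 to 9.39 in WT and 9.25 to 9.46 in cKO, and 0 of 9 markers correlated with it at an adjusted p under 0.05, over 27 relations with this mean, the cortical mean and Foxp1. The smallest p of the 27 was that of Isl1 with the cortical mean, over clustered cKO arrays (r = -0.86, permutation p = 0.00242, adjusted p = 0.0653). Ebf1 and Slc35d3 had r = 0.64 and 0.69 with Foxp1 (permutation p = 0.0243 and 0.0483, adjusted p = 0.300 for both). For Slc35d3 this r was 0.32 without the 2 arrays farthest from the Foxp1 median. With the progenitor mean Pdyn had r = -0.56 (permutation p = 0.0353, adjusted p = 0.300), rho = -0.66 (permutation p = 0.0117), and r = -0.55 without the 2 arrays farthest from the median. Sfxn1 had r = -0.64 (permutation p = 0.0666, adjusted p = 0.300), rho = -0.64 (permutation p = 0.0634), and r = -0.83 without those. In the lists of astrocytes, oligodendrocyte lineage, microglia and erythroid cells 0 genes passed, with medians of 0.05, 0.02, -0.0054 and -0.02. Their smallest p-values were those of Slc1a2 (0.15) and Aldh1l1 (0.15) for astrocytes, Cspg4 and Olig1 (-0.14) for the oligodendrocyte lineage, C1qa (-0.05) and Aif1 (0.03) for microglia, and Alas2 (-0.03) and Hbb-y (-0.02) for erythroid cells, with the log2 difference in brackets. In the cholinergic list they were Gbx2 (-0.03) and Zic4 (0.03), in the pallidal and septal list Gbx1 (0.02) and Zic2 (-0.04), and among Y-linked genes Kdm5d (-0.23) and Eif2s3y (-0.48). The mean of the Y-linked genes was 5.34 to 5.40 in WT replicates 3 and 4 and in cKO replicates 2, 3 and 5. On the other arrays it was 7.32 to 7.71, so each group mixed arrays with a high and a low Y-linked level.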

How the data were processed

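Striatal RNA samples of 6 WT and 6 cKO mouse embryos were labelled with biotin and hybridised to 1 array each. The authors deposited log2 values made with RMA, according to the submitters' processing notes. RMA corrects the background, gives the arrays a common distribution and summarises probes, so a change shared by all genes is not visible and low values are compressed. Array model and probe positions are not given in the sources used here. Precision is limited by the number of arrays. Symbols came from the platform annotation through gene identifiers (24674 of 25428 probe sets). Of 178 genes on 25 lists 167 were matched, and the others were not analysed here.

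A linear model without covariates was fitted to all probe sets and arrays (limma version 3.58.1, moderated two-sided test, under R version 4.3.3), with Benjamini-Hochberg adjustment and a threshold of 0.05. Changes are cKO minus WT. Pairs of genes were compared by two-sided exact permutation of arrays, and correlations by 100000 permutations within groups, or by all 720 arrangements within 1 group. Tested on simulated data over 25428 probe sets, the fit recovered 78.8% of changes of 0.25, 96.9% of 0.5 and 99.7% of 1, with 5.98% false calls. The median residual SD of all probe sets was 0.047. Those of the 9 markers ran from 0.053 (Chrm4) to 0.27 (Drd1), with Tac1 at 0.22. Recovery at the residual SD of each marker was not tested. The genes, lists and motifs were chosen with earlier results of these data known. Named genes are the 9 markers, the members of each other list past the threshold (or the 2 with the smallest p) and the 3 genes most like each marker. Sp9, Gpr6, Dner, Gng2, Drd2, Ppp1r1b, Lhx6, Tbr1, Slc17a7, Emx1, Gad2 and Chat were named outside this rule, with their values seen. RefSeq promoter windows were of GRCm38.p6.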

Additional observations from a re-analysis of the deposited data

Results flagged for a closer look

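Within groups of 6 arrays, 100 gene and group combinations were checked for a sample far from the others, and 6 were found, where chance gives about 5%. Drd1 in cKO replicate 2, at 6.54, lay far below the next cKO array at 6.82. The same array was lowest for Zfp521, at 9.50 against 9.79 for the next. In cKO replicate 1, Ikzf1 was highest, at 6.28 against 6.11, and Drd4 was highest, at 5.60 against 5.52. In cKO replicate 6, Tacr1 was highest, at 6.43 against 6.32, and Dcx was lowest, at 12.19 against 12.25. Without cKO replicate 6 both Tacr1 and Dcx passed the threshold (limma adjusted p = 0.0257 and 0.0460).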

How the results depend on the processing

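With all arrays, 185 probe sets passed (76 higher, 109 lower in cKO), and 0 of the 9 markers. Leaving out dim probe sets gave 278 (118 higher) and 2 markers, Tac1 (-0.55) and Slc35d3 (-0.28), and a trended, robust prior gave the same 2 markers at -0.55 and -0.28. Array weights gave 1, Tac1 at -0.53. The cortical level as a covariate gave 103 probe sets (42 higher, 61 lower). Replicate numbers did not pair the arrays, since same-numbered arrays had correlations of -0.22 to 0.15 and 0 of 12 correlated best with its own number. With the replicate number as a block 64 passed (24 higher, 40 lower) and 0 markers, with adjusted p of 0.120 for Zfp521, 0.0718 for Pde10a and Ikzf1, 0.0758 for Dach1 and 0.0955 for Dach2; Neurod2 passed at 0.0198. Without WT replicates 3 and 6, 45 probe sets were higher, 0 pairs of markers differed, Drd2 minus Drd1 was 0.045, and r was -0.39 for Drd1 and Sfxn1 and -0.14 for Tac1 and Chrm4. Leaving out single arrays gave 106 to 227 probe sets (39 to 93 higher, 66 to 134 lower), 0 to 2 markers and 0 to 10 pairs that differed. The differences then ran from -0.055 to 0.12 for Drd1, -0.61 to -0.46 for Tac1, -0.25 to -0.19 for Isl1, -0.31 to -0.24 for Slc35d3, -0.031 to 0.021 for Eya1, -0.0017 to 0.066 for Drd2 and -0.088 to 0.0011 for Zic2. Drd2 minus Drd1 ran from -0.064 to 0.096, and r from -0.12 to 0.51 for Drd1 and Sfxn1 and from -0.093 to 0.70 for Tac1 and Chrm4. The cause of these shifts was not tested. Other normalizations and the Y-linked level as a covariate left 0 markers past the threshold.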
